A study of Chionodraco hamatus and Gymnodraco acuticeps and Trematomus bernacchii with 9 samples.

Results

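Genes of the red cell membrane and of carbon dioxide handling were followed in bulk RNA from the head kidney, where bony fish make most of their blood cells, in 3 Antarctic notothenioid species. Chionodraco hamatus is an icefish, of a family of fish that lacks hemoglobin. The other two, Gymnodraco acuticeps and Trematomus bernacchii, are red-blooded. Each species gave 3 libraries of total RNA, and the labels give neither the age nor the sex of the fish and do not say whether the libraries came from separate animals, so each p-value rests on the spread among these samples alone, which may be technical. The members were the rows of the count table whose name starts with 1 of 9 UniProt mnemonics: B3AT, RHAG, RHBG, RHCG, CAHZ, ERMAP, SPTB1, ANK1 and 41. The table has 12653 rows, each the UniProt entry of a protein from some organism, so that B3AT_ONCMY is the rainbow trout band 3 entry and CAHZ_DANRE a zebrafish carbonic anhydrase entry. Of these, 10 rows belonged to 8 of the 9 mnemonics, and a row for SPTB1, the erythrocytic beta spectrin, was not analysed here. Of the 10 rows, 7 held enough counts to be tested, among 8662 rows in all, and the other 3, RHBG_XENTR, RHCG_GASAC and RHCG_TETNG, held between 2 and 14 counts in all libraries together.

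In vertebrates with red blood, carbon dioxide from the tissues enters the red cell, where carbonic anhydrase turns it into bicarbonate, and band 3 exchanges that bicarbonate for chloride across the membrane. Band 3 is also a membrane anchor: ankyrin 1 ties it to the spectrin network underneath, and protein 4.1 joins spectrin and actin to other membrane proteins. Rh-associated glycoprotein sits in the same membrane and passes ammonia and, in mammalian red cells, carbon dioxide, while its relatives RHBG and RHCG move ammonia across epithelia such as the mammalian kidney and the fish gill.

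Total counts ran from 2501922 to 12055675 per library, and levels are given as CPM, the counts scaled to library size by TMM, listed for replicates 1, 2 and 3 in that order. CPM values carry no gene length and are compared between species within a row, never between rows. How reads of each species were matched to entries from other organisms is not given in the sources used here, and its part in the differences was not tested. Markers of red cells, 10 rows that include the heme enzyme row HEM0_OPSTA and the transcription factor row TAL1_TAKRU, summed to 127 to 183 CPM in C. hamatus libraries, against 6393 to 7376 CPM in G. acuticeps and 2207 to 2773 CPM in T. bernacchii libraries. By the test described below, 5 of the 9 tested rows of this list were higher in G. acuticeps than in T. bernacchii and 2 lower. Among all tested rows these shares were 13.1% and 18.3%. The 2 lower rows were KLF1_HUMAN and NFE2_BOVIN, with means of 10.7 and 8.77 CPM in G. acuticeps and 120 and 320 CPM in T. bernacchii. Hemoglobin rows took at most 0.00012% of the counts of a C. hamatus library. Markers of steroid-making interrenal cells stood at 24223 CPM in C. hamatus replicate 3 and at 13.9 to 70.4 CPM in the other 8 libraries. Markers of chromaffin cells stood at 7429 and 3568 CPM in C. hamatus replicates 2 and 3 and at no more than 318 CPM in the other 7 libraries. Skeletal muscle markers summed to 363 to 635 CPM in C. hamatus libraries, against 21439 to 34737 CPM in G. acuticeps and 581 to 3263 CPM in T. bernacchii libraries. Results are therefore also given without C. hamatus replicates 2 and 3, where the lone icefish library left is assumed to vary as the other species do.

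Of the 7 tested rows, 6 were lower in the C. hamatus libraries than in those of G. acuticeps and 1, RHBG_TAKRU, was higher (edgeR's quasi-likelihood test, Benjamini-Hochberg adjusted p under 0.05 over all tested rows). In the same comparison 16.8% of all tested rows were lower and 25.1% were higher. RHBG_TAKRU entered the test through its C. hamatus libraries alone, so it could only be called higher in that species. Against T. bernacchii, 3 rows were lower in C. hamatus (RHAG_HUMAN, CAHZ_DANRE and ERMAP_HUMAN), RHBG_TAKRU was higher, and B3AT_ONCMY, ANK1_HUMAN and 41_HUMAN did not pass the threshold. Among all rows, 14.8% were lower and 17.6% higher in that comparison. The median log2 fold change of the 7 rows was -4.53 against G. acuticeps and -2.63 against T. bernacchii, where the medians of all tested rows were 0.15 and 0.02. Against the mean of both red-blooded species, 6 rows were lower and 1 higher, with a median of -3.62 beside 0.20 for all rows, of which 14.3% were lower and 26.5% higher. The C. hamatus libraries are shared by these comparisons. The tissue was sequenced in bulk, so fewer red cells and less RNA per red cell cannot be told apart.

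**Figure D1:**
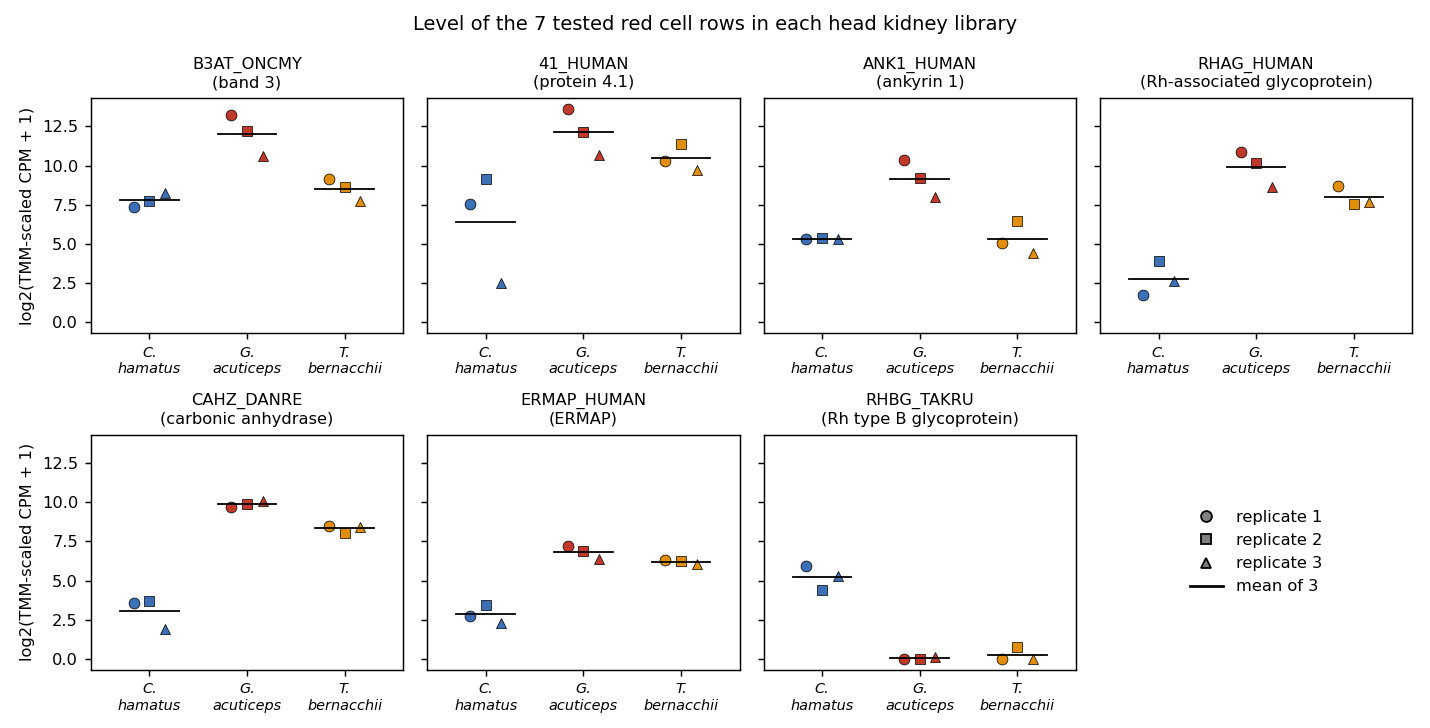
Level of the 7 tested rows in each library, as log2 of TMM-scaled CPM plus 1 on the y axis, with the 3 species on the x axis, symbols for replicates 1 to 3 and a line for the mean of the 3 log2 values. RHAG_HUMAN, CAHZ_DANRE and ERMAP_HUMAN lie lower in every C. hamatus library than in any other library, RHBG_TAKRU lies higher, and B3AT_ONCMY and ANK1_HUMAN overlap between C. hamatus and T. bernacchii.

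The icefish head kidney still held band 3 transcripts at a level that overlapped that of red-blooded T. bernacchii. B3AT_ONCMY stood at 164, 215 and 299.8 CPM in C. hamatus, against 9508, 4652 and 1541 CPM in G. acuticeps and 565, 391.7 and 210.1 CPM in T. bernacchii. Every G. acuticeps library was higher than all libraries of both other species, and the highest C. hamatus library was above the lowest T. bernacchii library. The means were 226 ± 68.7 CPM in C. hamatus, 5233 ± 4015 CPM in G. acuticeps and 389 ± 178 CPM in T. bernacchii (SD, n = 3 each). The log2 fold change of C. hamatus against G. acuticeps was -4.53 (SE 0.75, edgeR adjusted p = 0.00113), and it was -3.81 without G. acuticeps replicate 1. Against T. bernacchii it was -0.78 (SE 0.65, edgeR adjusted p = 0.393), with a 95% interval from -2.22 to 0.65. That interval holds 0 and values well below it, so the test shows neither a difference nor an equal level. Without C. hamatus replicates 2 and 3, the value against G. acuticeps was -5.00 (edgeR adjusted p = 0.0242). Against the mean of both red-blooded species B3AT_ONCMY had -2.66 (edgeR adjusted p = 0.00779), a call lost without those 2 libraries (-3.11, adjusted p = 0.0803).

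Ankyrin 1, the skeleton protein that holds band 3, was lower in the icefish than in the G. acuticeps libraries and overlapped with T. bernacchii. ANK1_HUMAN stood at 38.7, 41.3 and 39.3 CPM in C. hamatus, against 1295, 579 and 253 CPM in G. acuticeps and 32.9, 87.5 and 20.8 CPM in T. bernacchii. The C. hamatus libraries lay within the range of the T. bernacchii libraries and were close to one another, with a mean of 39.8 ± 1.34 CPM against 47.1 ± 35.5 CPM in T. bernacchii (SD, n = 3 each). ANK1_HUMAN was lower in C. hamatus than in the G. acuticeps libraries by a log2 fold change of -4.15 (SE 0.73, edgeR adjusted p = 0.00161), or -3.42 without G. acuticeps replicate 1, and the groups did not overlap. Against T. bernacchii the log2 fold change was -0.24 (SE 0.65, edgeR adjusted p = 0.817), with a 95% interval from -1.67 to 1.20, and it was 0.55 without T. bernacchii replicate 2, the highest of that species. Against the mean of both red-blooded species the log2 fold change was -2.20 (edgeR adjusted p = 0.0178), and this call was lost without C. hamatus replicate 2 (adjusted p = 0.0538) and without replicates 2 and 3 (adjusted p = 0.195).

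Protein 4.1 was the tested member that varied most between icefish libraries. 41_HUMAN held 822, 1695 and 24 counts in C. hamatus, or 191, 574 and 4.77 CPM. It stood at 12732, 4472 and 1629 CPM in G. acuticeps and at 1271, 2618 and 855 CPM in T. bernacchii. All C. hamatus libraries were below all others, and the lowest one was replicate 3, which carries the interrenal markers. The highest C. hamatus library was 120 times the lowest. Of the 2550 rows with a mean of at least 50 CPM and no library at 0 in this species, 0.902% had a ratio as large. Rows with a library at 0 have no such ratio and were left out. With the 5 rows of the 4.1 family summed, a sum taken after the values were seen because related rows may share reads, the level was 251, 636 and 67.1 CPM in C. hamatus, a span of 9.47 times. Of the 338 counts summed in replicate 3, E41L2_MOUSE, an entry of the widely expressed relative 4.1G, held 240. The log2 fold change against G. acuticeps was -4.61 (SE 1.37, edgeR adjusted p = 0.0211). This call was lost without C. hamatus replicate 1 (log2 fold change -4.51, adjusted p = 0.0558) and without G. acuticeps replicate 1 (log2 fold change -3.61, adjusted p = 0.0657), and the log2 fold change was -6.01 without C. hamatus replicate 2. Against T. bernacchii it was -2.63 (SE 1.26, edgeR adjusted p = 0.136, 95% interval -5.41 to 0.16), so the groups did not overlap and the test did not pass. Against the mean of both other species the log2 fold change was -3.62 (edgeR adjusted p = 0.0399). It missed the threshold without C. hamatus replicate 1 (adjusted p = 0.0992), G. acuticeps replicate 1 (0.0693) or replicate 2 (0.0529), and also without replicate 2 of T. bernacchii (0.0587). It missed it, too, without C. hamatus replicates 2 and 3 (0.0618), and the log2 fold change was -5.01 without C. hamatus replicate 2 alone.

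The tested Rh rows went in opposite directions, with RHAG_HUMAN lower and RHBG_TAKRU higher in the icefish than in both red-blooded species. RHAG_HUMAN, the Rh-associated glycoprotein that partners the Rh blood group proteins in human red cells, stood at 2.32, 13.9 and 5.16 CPM in C. hamatus, from 10, 41 and 26 counts. It stood at 1888, 1158 and 392.4 CPM in G. acuticeps and at 419.8, 188 and 199.9 CPM in T. bernacchii. All 3 C. hamatus libraries were far below all others. The means were 7.12 ± 6.02 CPM in C. hamatus, 1146 ± 748 CPM in G. acuticeps and 269 ± 130 CPM in T. bernacchii (SD, n = 3 each). The log2 fold change was -7.35 against G. acuticeps (SE 0.93, edgeR adjusted p = 0.000314) and -5.26 against T. bernacchii (SE 0.85, edgeR adjusted p = 0.00144). Without C. hamatus replicate 2, the library with the most RHAG_HUMAN counts, these values were -8.26 and -6.16, and without replicates 2 and 3 they were -8.94 and -6.83, all with an adjusted p under 0.05.

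RHBG_TAKRU, a pufferfish entry of the ammonia transporter Rh type B glycoprotein, had the opposite pattern. It held 260, 61 and 190 counts in C. hamatus, or 60.3, 20.6 and 37.7 CPM. G. acuticeps held 1 count in 1 of its 3 libraries, and T. bernacchii held 2 counts in 1 of its 3 libraries. Every C. hamatus library was above every library of the red-blooded species. The ratio of depth-scaled counts was 707 over G. acuticeps, with an exact 95% binomial interval from 126 to 27980, and 359 over T. bernacchii, with an interval from 98.9 to 2973. These intervals cover counting error only. The row held enough counts to be tested through its C. hamatus libraries alone, so the test could only call it higher there. RHBG_TAKRU was called higher in C. hamatus with an edgeR adjusted p of 0.000700 against G. acuticeps and 0.00141 against T. bernacchii, and without C. hamatus replicates 2 and 3 the adjusted p was 0.00348 and 0.00615. Its fitted log2 fold changes, 8.99 and 7.85, rest on the 1 to 2 counts of the lower species and on the prior count. They were 10.52 when G. acuticeps replicate 3 was left out and 10.74 when T. bernacchii replicate 2 was, the libraries that hold those counts, and the value against T. bernacchii was 6.96 without T. bernacchii replicate 3.

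The remaining Rh rows were near 0. RHBG_XENTR, a clawed frog entry of the same protein, held 7, 7 and 0 counts in C. hamatus and none in the 6 other libraries. Its mean in C. hamatus, 1.33 CPM, was close to the floor of 3 counts per library, 0.664 CPM in G. acuticeps and 0.683 CPM in T. bernacchii. The row held too few counts to be tested, so no fold difference is given. RHCG_TETNG, an entry of Rh type C glycoprotein from a pufferfish, held 2 counts in C. hamatus replicate 3, and RHCG_GASAC, the stickleback entry, held 2 counts in T. bernacchii replicate 2, so neither gave a difference at this depth. Reads of related Rh genes may be split between these rows, which makes each of them uncertain. The 5 Rh rows together, summed after their values were seen, came to 64.2, 36.9 and 43.3 CPM in C. hamatus, against 1888, 1158 and 392.5 CPM in G. acuticeps and 419.8, 189.8 and 199.9 CPM in T. bernacchii. RHBG_TAKRU made up most of the sum in each C. hamatus library, and RHAG_HUMAN in each library of the red-blooded species.

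Kidney tubule markers were looked at beside RHBG_TAKRU, since its protein is known from kidney epithelium in mammals. Their 9 rows summed to 51.5, 75.1 and 328 CPM in C. hamatus, against 67.6, 64.1 and 25.8 CPM in G. acuticeps and 93.2, 118 and 59.97 CPM in T. bernacchii. The highest sum was in C. hamatus replicate 3, and the other icefish libraries lay within the range of the red-blooded species. The only tubule marker with enough counts to test, UROM_HUMAN, gave a log2 fold change of 1.60 against G. acuticeps (edgeR adjusted p = 0.0901) and 0.75 against T. bernacchii (edgeR adjusted p = 0.445). Most of each tubule sum was 1 row, UROM_HUMAN, with means of 151 CPM in C. hamatus, 49.8 CPM in G. acuticeps and 90.0 CPM in T. bernacchii. The sums are thus not a measure over many markers. Between 4 and 7 of the 9 tubule rows were at 0 in each library. The part of kidney tubule, or of the adrenal tissue marked in C. hamatus replicates 2 and 3, in the RHBG_TAKRU difference was not tested.

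CAHZ_DANRE, the carbonic anhydrase that is abundant in zebrafish red cells, had even levels within the red-blooded species. It stood at 10.9, 12.2 and 2.78 CPM in C. hamatus, from 47, 36 and 14 counts, against 841, 954 and 1062 CPM in G. acuticeps and 366, 261 and 349 CPM in T. bernacchii. The 3 species did not overlap. Their means were 8.62 ± 5.10 CPM in C. hamatus, 952 ± 110 CPM in G. acuticeps and 325 ± 56.5 CPM in T. bernacchii (SD, n = 3 each). The log2 fold change was -6.80 against G. acuticeps (SE 0.64, edgeR adjusted p = 8.81e-05) and -5.25 against T. bernacchii (SE 0.60, edgeR adjusted p = 0.000267). Without C. hamatus replicates 2 and 3 it was -6.45 and -4.88, with adjusted p-values of 0.000988 and 0.00270.

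ERMAP_HUMAN, a membrane protein of the immunoglobulin superfamily that carries the Scianna blood group antigens in humans, was low in the icefish too. It stood at 5.80, 10.2 and 3.97 CPM in C. hamatus, against 149, 115 and 81.8 CPM in G. acuticeps and 79.8, 74.4 and 64.6 CPM in T. bernacchii. All C. hamatus libraries were below all others. The log2 fold change was -4.13 against G. acuticeps (SE 0.49, edgeR adjusted p = 0.000213) and -3.47 against T. bernacchii (SE 0.48, edgeR adjusted p = 0.000598). Without C. hamatus replicates 2 and 3 it was -4.31 and -3.63, with adjusted p-values of 0.00304 and 0.00694. In the red cell marker list, 8 of its 9 tested rows were lower in the icefish than in the G. acuticeps libraries, and 9 of 9 were lower than in those of T. bernacchii. Among all tested rows 16.8% and 14.8% were lower in these comparisons. That list was chosen with earlier results of these data known.

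**Figure D2:**
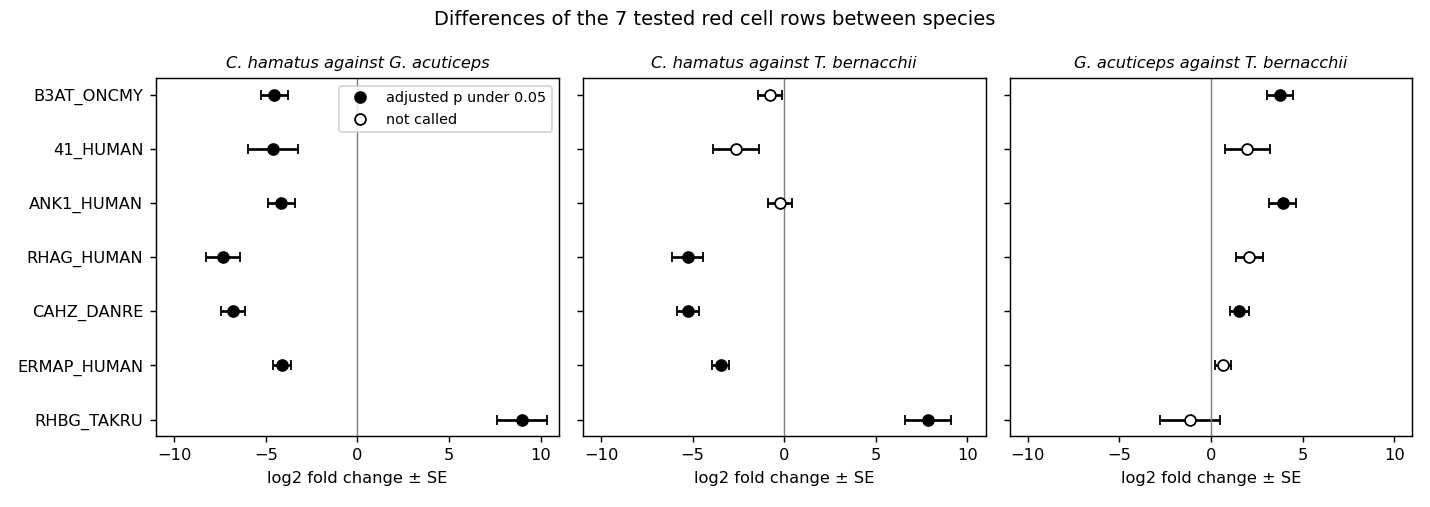
Log2 fold change with its SE on the x axis for the 7 tested rows, in 1 panel for each pair of species, where a filled point has an adjusted p under 0.05. RHAG_HUMAN, CAHZ_DANRE and ERMAP_HUMAN lie left of 0 in both C. hamatus panels, B3AT_ONCMY and ANK1_HUMAN are called in the first of these panels and not in the second, and RHBG_TAKRU lies at 8.99 and 7.85.

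Between the red-blooded species, 3 of the 7 rows were higher in G. acuticeps than in T. bernacchii and none was lower in edgeR's test, beside 13.1% of all tested rows higher and 18.3% lower. At an unadjusted p under 0.05, and in DESeq2's test, 4 rows were higher and none lower. The added row was RHAG_HUMAN. The shares of all tested rows in these settings are not given here, so these counts have no background beside them. The median log2 fold change of the 7 rows was 1.99, and that of all rows -0.12. Ankyrin 1 and band 3 had the largest differences of the 7. ANK1_HUMAN had a log2 fold change of 3.92 (SE 0.72, edgeR adjusted p = 0.00245), or 3.17 with G. acuticeps replicate 1 left out and 4.73 with T. bernacchii replicate 2 left out. B3AT_ONCMY had one of 3.75 (SE 0.72, edgeR adjusted p = 0.00298), which was 3.01 without G. acuticeps replicate 1. For both rows every G. acuticeps library was above every T. bernacchii library. CAHZ_DANRE was higher in G. acuticeps by 1.55 (SE 0.51, edgeR adjusted p = 0.0402), and this call was lost without any single library of either species, with log2 fold changes from 1.42 to 1.70 and adjusted p-values from 0.0749 to 0.106.

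The other 4 rows did not pass in that comparison. For RHAG_HUMAN the log2 fold change was 2.09 (SE 0.73, edgeR adjusted p = 0.0509), and it passed under several alternatives, among them DESeq2's test (adjusted p = 0.0134) and the fit without G. acuticeps replicate 3 (2.56, edgeR adjusted p = 0.0336). It also passed without C. hamatus replicate 1 (edgeR adjusted p = 0.0316) or replicate 2 (0.0324). ERMAP_HUMAN had 0.66 (SE 0.43, edgeR adjusted p = 0.267) with groups that did not overlap, and 41_HUMAN had 1.99 (SE 1.22, edgeR adjusted p = 0.245) with groups that did. RHBG_TAKRU had -1.14 (SE 1.62, edgeR adjusted p = 0.627), from 1 count in G. acuticeps and 2 counts in T. bernacchii. The sum of skeletal muscle markers was higher in every G. acuticeps library than in any T. bernacchii library, as given above. Most of the G. acuticeps sum was 1 row, ACTS_ORYLA, at 19039, 30866 and 29894 CPM. Of the 14 tested muscle rows, 1 (ACTS_ORYLA) was called higher in G. acuticeps, 1 lower and 12 not called. Among all tested rows 13.1% were higher and 18.3% lower. Hemoglobin rows were higher in T. bernacchii, with 1.99%, 1.72% and 1.72% of counts in G. acuticeps libraries and 11.1%, 7.65% and 15.1% in T. bernacchii libraries. The part of either in these differences was not tested.

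Within G. acuticeps, 4 of the member rows spanned a wide range, and 5 had a common order of libraries. The highest library was 7.82 times the lowest for 41_HUMAN, 6.17 times for B3AT_ONCMY, 5.12 times for ANK1_HUMAN and 4.81 times for RHAG_HUMAN, and in each case replicate 1 was highest and replicate 3 lowest. The median ratio over the 2565 rows with a mean of at least 50 CPM in that species was 1.58. Ratios as large as these 4 were found in 0.702%, 1.17%, 1.68% and 2.22% of those rows. ERMAP_HUMAN had the same order of libraries with a smaller span of 1.82 times, and CAHZ_DANRE spanned 1.26 times, with replicate 3 highest. The red cell sum of the same libraries was 7376, 6393 and 6906 CPM, the row of the heme enzyme HEM0_OPSTA spanned 1.19 times, and TAL1_TAKRU, a blood cell transcription factor, spanned 4.03 times in the same order as the membrane rows. The red cell markers HEM6_HUMAN and E2AK1_MACFA also had replicate 1 highest and replicate 3 lowest, with spans of 1.53 and 1.78 times. MFRN1_DANRE, RBTN2_DANRE and TM14C_DANRE had replicate 3 highest and replicate 1 lowest, with spans of 1.55, 1.49 and 1.36 times. Replicate 3 had 12055675 counts and replicates 1 and 2 had 3052436 and 4310369, and the part of depth in this spread was not tested.

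**Figure D3:**
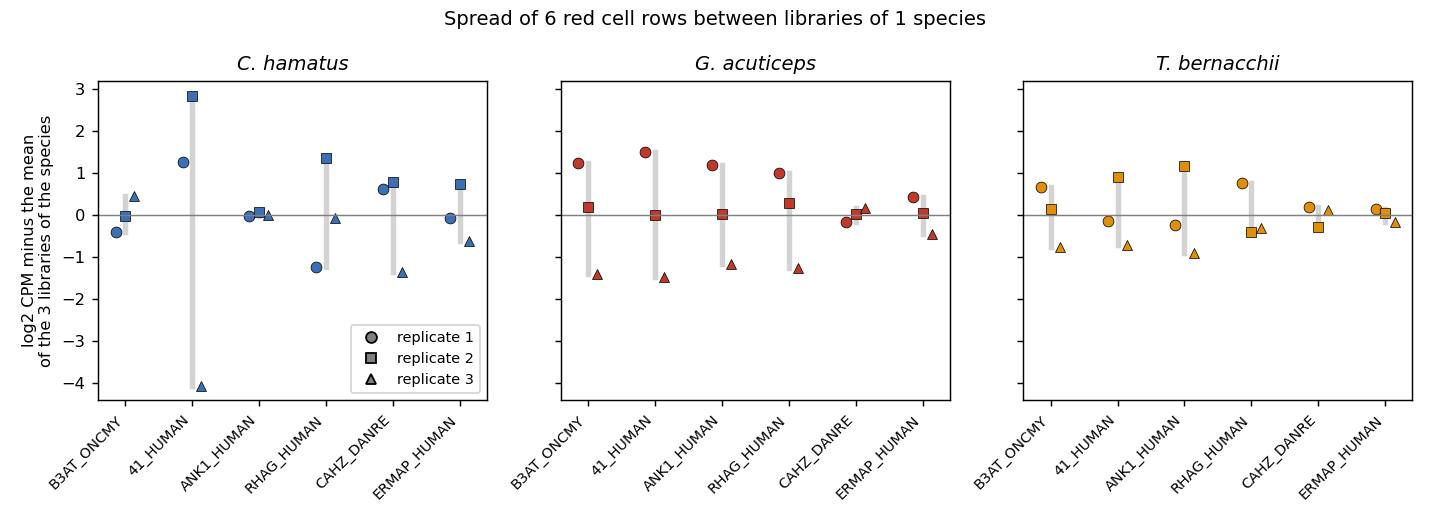
Log2 CPM of 6 member rows minus the mean of the 3 libraries of the same species on the y axis, with 1 panel per species and symbols for replicates 1 to 3. In G. acuticeps B3AT_ONCMY, 41_HUMAN, ANK1_HUMAN and RHAG_HUMAN fall apart with replicate 1 on top while CAHZ_DANRE stays within 1.26 times, and in C. hamatus 41_HUMAN spans 120 times.

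In T. bernacchii the member rows with a mean of at least 50 CPM spread no more than many other rows. The highest library was 3.06 times the lowest for 41_HUMAN, 2.69 times for B3AT_ONCMY, 2.23 times for RHAG_HUMAN, 1.40 times for CAHZ_DANRE and 1.23 times for ERMAP_HUMAN, beside a median of 1.96 over 2600 rows. Ratios as large as these were found in 19.3%, 25.3%, 38.2%, 82.9% and 93.2% of those rows, in the same order. ANK1_HUMAN, with a mean under 50 CPM there, spanned 4.21 times and was not compared with those rows. In C. hamatus B3AT_ONCMY spanned 1.83 times, beside a median of 2.46 over 2550 rows, of which 69.9% had a ratio as large. ANK1_HUMAN, with a mean under 50 CPM there too, spanned 1.07 times.

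Of 5 ratios between the counts of member rows, 2 lay higher in every C. hamatus library than in any other library. A ratio of 2 rows inside a library does not depend on how the library is scaled, but it does depend on how well reads of each species match each row, and the ratios were chosen after their values were seen, so they are described without a test. Band 3 counts were 15.04, 17.6 and 107.9 times the CAHZ_DANRE counts in C. hamatus, against 11.3, 4.88 and 1.45 times in G. acuticeps and 1.54, 1.502 and 0.603 times in T. bernacchii. All 3 icefish ratios were above the 6 others, and the mean log2 ratio was 4.93 in C. hamatus and 1.13 in the red-blooded species, a difference of 3.80. The ratio of ERMAP_HUMAN to CAHZ_DANRE was 0.532, 0.833 and 1.43 in C. hamatus and 0.0770 to 0.285 in the other libraries, a difference of 2.39. All 3 icefish values of that ratio were above the 6 others as well. The CAHZ_DANRE counts of C. hamatus are 47, 36 and 14, so both ratios of replicate 3 rest on few counts.

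The other 3 ratios overlapped between the icefish and the red-blooded species. RHAG_HUMAN counts were 0.213, 1.14 and 1.86 times the CAHZ_DANRE counts in C. hamatus and 0.370 to 2.24 times in the other libraries, a log2 difference of -0.21. ANK1_HUMAN to B3AT_ONCMY differed by 0.55, with ratios of 0.131 to 0.236 in C. hamatus and 0.0582 to 0.223 in the other libraries. 41_HUMAN to B3AT_ONCMY differed by -2.51, with 1.16, 2.67 and 0.0159 in C. hamatus and 0.961 to 6.68 in the other libraries.

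**Figure D4:**
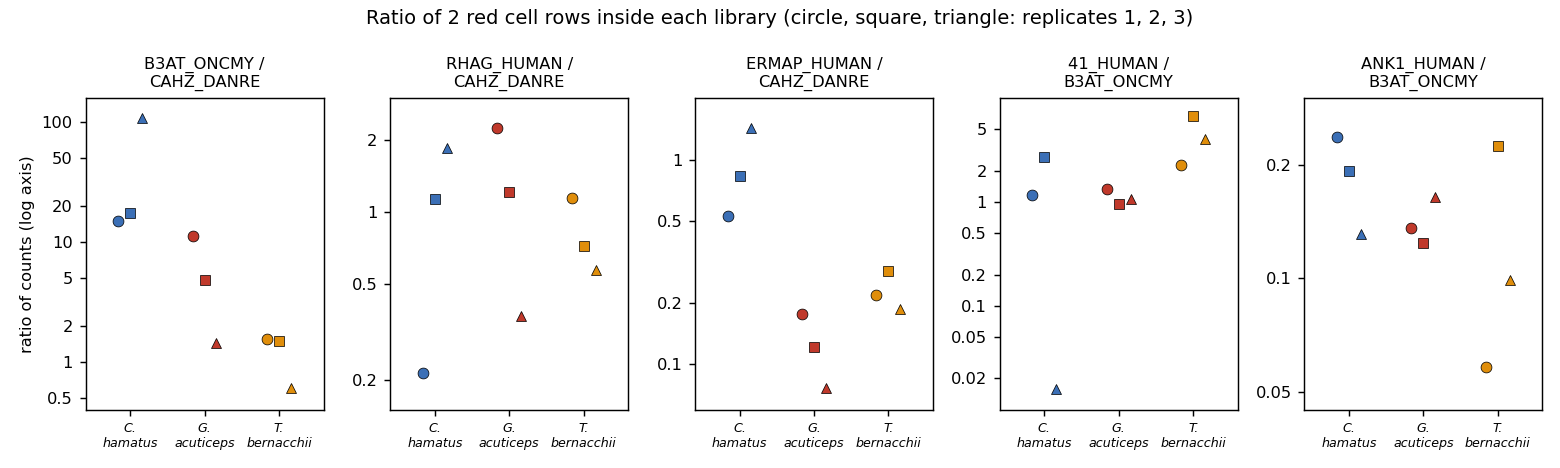
Ratio of the counts of 2 member rows inside each library on log axes, with the 3 species on the x axis and symbols for replicates 1 to 3. The ratios of B3AT_ONCMY and ERMAP_HUMAN to CAHZ_DANRE lie higher in all 3 C. hamatus libraries than in the 6 others, while the other 3 ratios overlap.

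Related rows of the table may share reads with the members, so sums over each family were taken after the values were seen. The 2 anion exchanger rows, B3AT_ONCMY and the AE2 row B3A2_HUMAN, came to 170.0, 226 and 301 CPM in C. hamatus, against 9535, 4677 and 1567 CPM in G. acuticeps and 613, 428 and 278 CPM in T. bernacchii. The overlap of C. hamatus with T. bernacchii was thus present in the sum too. The 4 ankyrin rows came to 61.0, 131 and 132 CPM in C. hamatus, against 1316, 580.1 and 255 CPM in G. acuticeps and 53.3, 102 and 44.7 CPM in T. bernacchii. The 2 cytosolic carbonic anhydrase rows, CAHZ_DANRE and CAH1_CHIHA, came to 16.002, 19.3 and 5.16 CPM in C. hamatus, against 1024, 1230.4 and 1344 CPM in G. acuticeps and 376, 449.9 and 353 CPM in T. bernacchii. In these sums the carbonic anhydrases stayed far apart between the icefish and both other species. The 5 rows of the 4.1 family, with the icefish values given above, came to 12761, 4531 and 1718 CPM in G. acuticeps and to 1311, 2725 and 1008.4 CPM in T. bernacchii, so every C. hamatus library was below all others here too. The 3 beta spectrin rows, none of them SPTB1, came to 30.6, 50.1 and 21.0 CPM in C. hamatus, against 445, 335 and 346 CPM in G. acuticeps and 51.4, 123 and 86.8 CPM in T. bernacchii, again without overlap between the icefish and the others. With all rows of 1 mnemonic summed over the whole table, the 7 testable member proteins gave the calls of their rows in all 4 comparisons, beside 41.2% of 8181 proteins called in either direction against G. acuticeps, 31.6% against T. bernacchii, 40.1% against the mean of both and 30.5% between the red-blooded species.

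The other proteins of the membrane skeleton and its partners went in both directions. Of 35 mnemonics listed, 22 had a row and 19 rows were tested. Against G. acuticeps, 3 rows were higher in C. hamatus, 2 lower and 14 not called, and their median log2 fold change was 0.66. Against T. bernacchii 4 were higher, 3 lower and 12 not called, with a median of 0.82. The medians of all rows were 0.15 and 0.02, and the shares of all rows called are those given above. Against the mean of both, 7 were higher and 3 lower, and without C. hamatus replicates 2 and 3 the count was 3 higher and 3 lower. The 5 rows called against G. acuticeps became 8 without C. hamatus replicate 3 (3 higher, 5 lower), a fit in which the filter left 21 rows of the list.

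Beta adducin, which caps actin at the spectrin junctions of the red cell, was lower in the icefish than in T. bernacchii. ADDB_MOUSE held 0, 0 and 2 counts in C. hamatus, against 1, 1 and 7 counts in G. acuticeps and 180, 76 and 136 counts in T. bernacchii. The row was thus low in all libraries but those of T. bernacchii, through which alone it entered the test. The counts of T. bernacchii, scaled for depth, were 139 times those of C. hamatus, with an exact 95% binomial interval from 38.4 to 1156 (edgeR adjusted p = 0.00114). The alpha and gamma adducin rows, ADDA_HUMAN and ADDG_HUMAN, were not lower in C. hamatus. Against T. bernacchii they had log2 fold changes of 3.52 (edgeR adjusted p = 0.0163) and 1.35 (0.155). Against G. acuticeps they had 0.57 (0.625) and 2.20 (0.0278). The lower level thus holds for the beta adducin row alone. SPTB2_MOUSE, an entry of the spectrin beta chain found outside red cells, stood at 28.8, 40.6 and 15.1 CPM in C. hamatus, against 443, 333 and 341 CPM in G. acuticeps and 49.6, 103 and 83.5 CPM in T. bernacchii. It was lower in C. hamatus than in the G. acuticeps libraries by a log2 fold change of -3.73 (SE 0.50, edgeR adjusted p = 0.000383). The human entry of the same chain, SPTB2_HUMAN, had means of 5.76, 3.25 and 8.13 CPM in C. hamatus, G. acuticeps and T. bernacchii. That row was not called, with a log2 fold change of 0.80 against G. acuticeps (edgeR adjusted p = 0.563) and -0.48 against T. bernacchii (0.754). Against T. bernacchii SPTB2_MOUSE had one of -1.49 (SE 0.46, edgeR adjusted p = 0.0304), a call lost without C. hamatus replicate 1 (0.0637), C. hamatus replicate 3 (0.0688), G. acuticeps replicate 2 (0.0568) or replicate 3 (0.0501), and T. bernacchii replicate 2 (0.0623) or replicate 3 (0.0757). It was also lost with the pair of species fitted alone (adjusted p = 0.0859) and without C. hamatus replicates 2 and 3 (adjusted p = 0.123).

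ANK3_HUMAN, ankyrin G of epithelial and neuronal membranes, was higher in the icefish than in G. acuticeps. It stood at 21.8, 33.5 and 74.3 CPM in C. hamatus, against 0.934, 0 and 0.610 CPM in G. acuticeps and 20.2, 14.1 and 24.0 CPM in T. bernacchii. C. hamatus overlapped with T. bernacchii (log2 fold change 1.15, SE 0.70, edgeR adjusted p = 0.240) and not with G. acuticeps (edgeR adjusted p = 0.000586). The highest level was in C. hamatus replicate 3. FLOT2_CARAU, a goldfish entry of the raft protein flotillin 2, held 52, 13 and 118 counts in C. hamatus, against 118, 88 and 192 counts in G. acuticeps and 0 in all T. bernacchii libraries. Against a floor of 3 counts per library it was at least 19.5-fold higher in C. hamatus than in T. bernacchii (edgeR adjusted p = 0.00126). A zebrafish row of flotillin 2 held more counts than FLOT2_CARAU in every library, and with both rows summed the difference was 0.44 (edgeR adjusted p = 0.481).

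**Figure D5:**
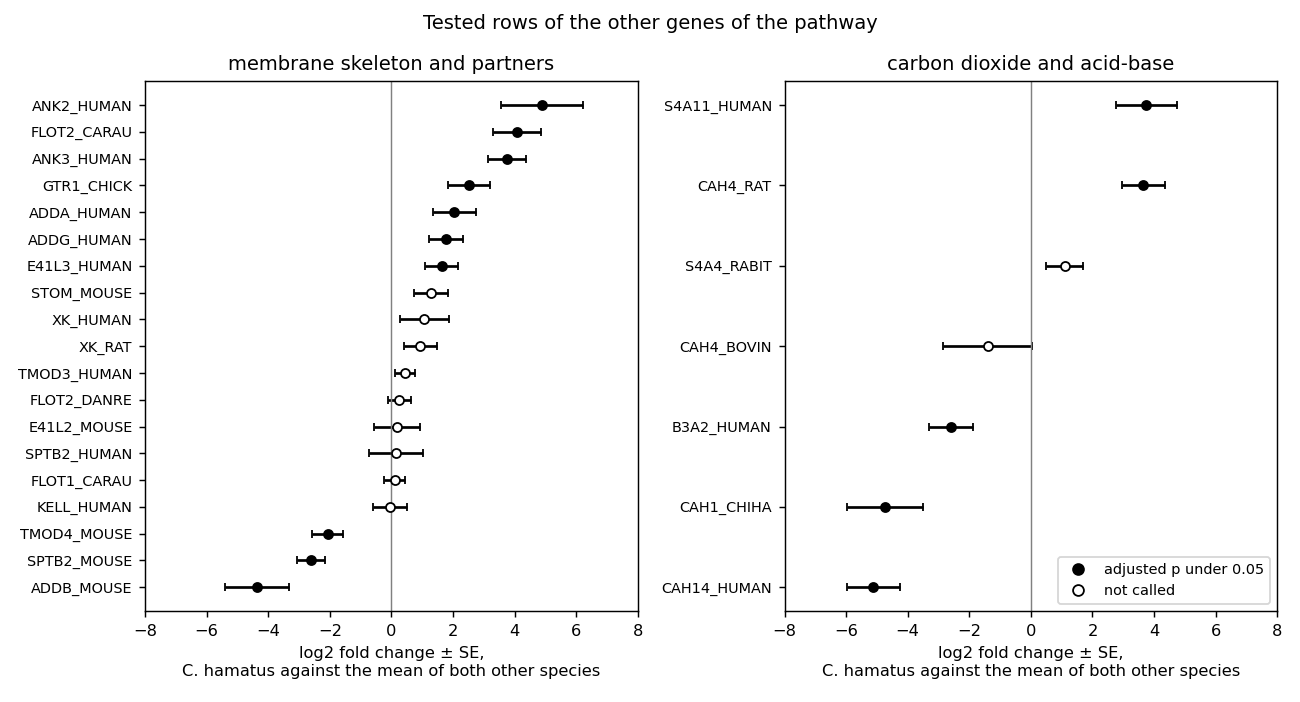
Log2 fold change with its SE of C. hamatus against the mean of both red-blooded species on the x axis, for the 19 tested rows of the membrane skeleton list and the 7 of the carbon dioxide list, where a filled point has an adjusted p under 0.05. Filled points stand on both sides of 0 in each list.

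Of the other proteins of carbon dioxide and acid-base handling, 36 mnemonics were listed, 14 had a row and 7 rows were tested. Against G. acuticeps, 1 row was higher in C. hamatus, 3 were lower and 3 not called, and their median log2 fold change was -0.49. Against T. bernacchii, 2 were higher, 3 lower and 2 not called, with a median of -2.32, and against the mean of both the counts were the same with a median of -1.41. Among all tested rows 25.1% were higher and 16.8% lower against G. acuticeps, 17.6% and 14.8% against T. bernacchii, and 26.5% and 14.3% against the mean. The medians of all rows were 0.15, 0.02 and 0.20. The filter follows the size of the smallest group, so fits with 1 library left out tested between 7 and 10 rows of this list. The counts of the smaller fits below are given without a share of all rows. Without T. bernacchii replicate 3 the count against G. acuticeps was 4 higher and 3 lower of 10 rows tested. Against the mean, the count was 5 higher and 3 lower, of 9 rows tested without C. hamatus replicate 1 and of 10 without any single library of G. acuticeps or T. bernacchii. Without C. hamatus replicates 2 and 3 8 rows were tested, and the counts were 2 lower and none higher against G. acuticeps, 1 higher and 2 lower against T. bernacchii, and 2 lower and none higher against the mean.

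Of the carbonic anhydrase rows other than CAHZ named here, CAH14_HUMAN and CAH1_CHIHA were lower in C. hamatus than in the G. acuticeps libraries. CAH4_RAT was higher in C. hamatus than in T. bernacchii and was not called against G. acuticeps. CAH14_HUMAN, an entry of membrane-bound carbonic anhydrase, stood at 0, 0.677 and 1.59 CPM in C. hamatus, against 34.6, 28.1 and 23.3 CPM in G. acuticeps and 27.4, 33.0 and 20.5 CPM in T. bernacchii. All C. hamatus libraries were below all others, with an edgeR adjusted p of 0.00143 against G. acuticeps and 0.00208 against T. bernacchii. CAH1_CHIHA, an entry from C. hamatus itself, stood at 5.10, 7.11 and 2.38 CPM in C. hamatus, against 182, 276 and 282 CPM in G. acuticeps and 9.72, 189 and 3.88 CPM in T. bernacchii. It was lower in C. hamatus than in the G. acuticeps libraries by a log2 fold change of -5.68 (SE 1.34, edgeR adjusted p = 0.00693), and that call was lost without C. hamatus replicates 2 and 3 (0.121). Against T. bernacchii CAH1_CHIHA overlapped and had -3.80 (edgeR adjusted p = 0.0379), which was -0.49 (adjusted p = 0.526) without T. bernacchii replicate 2. That library also had the highest skeletal muscle sum of its species, 3263 CPM beside 581 and 995 CPM, and the part of muscle was not tested. The call against T. bernacchii was also lost without any single C. hamatus or G. acuticeps library, with adjusted p-values up to 0.103. It was lost, too, with the replicate block (0.104), with the pair of species fitted alone (0.0832) and without C. hamatus replicates 2 and 3 (0.268).

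CAH4_RAT, an entry of the carbonic anhydrase held on the outer face of membranes, stood at 35.0, 64.3 and 497 CPM in C. hamatus, against 66.3, 77.4 and 42.6 CPM in G. acuticeps and 4.24, 5.38 and 2.62 CPM in T. bernacchii. The high value was in C. hamatus replicate 3, the library with interrenal markers. CAH4_RAT was higher in C. hamatus than in T. bernacchii by a log2 fold change of 5.63 (SE 1.01, edgeR adjusted p = 0.00233), or 3.15 (adjusted p = 0.00750) without C. hamatus replicates 2 and 3. This call was lost with all CAH4 rows summed (2.93, adjusted p = 0.0934). Against G. acuticeps CAH4_RAT overlapped and was not called (log2 fold change 1.68, edgeR adjusted p = 0.133). Against the mean of both red-blooded species it had 3.65 (edgeR adjusted p = 0.00226), or 1.16 without C. hamatus replicates 2 and 3. The call against the mean was also lost with the CAH4 rows summed (2.24, adjusted p = 0.0829). B3A2_HUMAN, the anion exchanger AE2 of many tissues, stood at 6.03, 11.5 and 0.794 CPM in C. hamatus, against 27.1, 25.6 and 26.2 CPM in G. acuticeps and 47.4, 36.0 and 67.5 CPM in T. bernacchii. All C. hamatus libraries were below all others, with a log2 fold change of -3.06 (SE 0.77, edgeR adjusted p = 0.0118) against T. bernacchii. Against G. acuticeps it was -2.13 (SE 0.74, edgeR adjusted p = 0.0414), a call lost without C. hamatus replicate 1, T. bernacchii replicate 1 or any single G. acuticeps library, with adjusted p-values from 0.0503 to 0.0822. It was also lost with upper-quartile factors (0.0539), a minimum of 50 counts in 3 libraries (0.0504), the replicate block (0.0539) and the pair of species fitted alone (0.0619).

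Among 6248 other rows with a mean of at least 100 counts in some species, the rows most like each member were taken by Pearson correlation of log2 CPM over the 9 libraries, which are shared by all rows and differ mainly by species. RHAG_HUMAN was closest to ITIH2_HUMAN (r = 0.989), E2F8_HUMAN (0.986) and ODB2_BOVIN (0.984). CAHZ_DANRE was closest to WDR17_HUMAN (0.993), CDCA3_XENLA (0.990) and CNDH2_DANRE (0.987). RHBG_TAKRU was closest to SOCS6_PONAB (0.998), LAMB4_DANRE (0.995) and GPR55_HUMAN (0.993), which likewise held at most 2 counts in any library outside C. hamatus. B3AT_ONCMY was closest to ATOH1_MOUSE (0.965), RM48_MOUSE (0.963) and CECR5_HUMAN (0.960). ATOH1_MOUSE held 554, 209 and 136 counts in G. acuticeps and 0 elsewhere. Among the members, RHAG_HUMAN lay closest to ERMAP_HUMAN (0.979) and CAHZ_DANRE (0.951), and B3AT_ONCMY lay closest to ANK1_HUMAN (0.955).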

How the data were processed

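Read counts per UniProt entry were used as deposited by the authors, with no normalization, for 9 head kidney libraries, 3 per species. Per the labels' protocols, RNA was taken with Trizol from frozen tissue and 6 ug of total RNA went into an Illumina TruSeq kit. Aligner, reference, counter and strand use: not given in the sources used here. No genome was used. All rows name an entry. Groups are the species as labelled.

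Rows were filtered with filterByExpr (minimum count 10, minimum total 15), scaled (TMM) and tested by quasi-likelihood in edgeR 4.0.16 under R 4.3.3 (1 estimate of spread over 9 libraries, no block), with Benjamini-Hochberg adjustment over 8662 rows. The SE is the log2 fold change over the square root of the F statistic. Intervals are 95% t intervals from that SE. Log2 CPM for correlations used a prior count of 2, and floors are 3 counts per library, for counting error only. The fit was tested on simulated counts. Figures used matplotlib 3.10.9.

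The members and lists were chosen with earlier results of these data known. All member rows are accounted for. Up to 4 rows per list are named: those with the largest change called against the mean of both red-blooded species whose mean count reached 100 in the higher species. For RHAG, CAHZ, B3AT and RHBG, the 3 most alike rows are named. Other rows named were chosen after their values were seen. Of the marker lists, no row of the ionocyte list was analysed here. Neutrophil markers (3 rows) summed to 389 to 884 CPM in C. hamatus libraries, against 771 to 946 CPM in those of G. acuticeps and 977 to 1248 CPM in those of T. bernacchii, and the thrombocyte row stood at 119 to 164 CPM in C. hamatus, with 176 to 195 CPM in G. acuticeps and 67.3 to 242 CPM in T. bernacchii. Alternatives were DESeq2 1.42.0 (size factors, and its test), upper-quartile scaling, all rows kept, a minimum of 50 counts in 3 libraries, the replicate block, pairs of species alone, no hemoglobin rows, rows of 1 mnemonic summed, and leaving out each library or C. hamatus replicates 2 and 3.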

Additional observations from a re-analysis of the deposited data

How the results depend on the processing

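For the 7 tested member rows, 28 fold changes were recomputed under up to 19 alternative settings each, which gave 524 values. These values share fits and libraries, so they are not separate pieces of evidence. Of them, 497 kept the side of the threshold, 17 lost the call, 10 gained one, and no called value changed sign. Of values not called, that of ANK1_HUMAN in C. hamatus against T. bernacchii ran from -0.53 to 0.55. That of RHBG_TAKRU between the red-blooded species ran from -2.67 to 1.77. Over the fits that leave out 1 library, the number of member rows called ran from 6 to 7 against G. acuticeps, was 4 in each against T. bernacchii, ran from 6 to 7 against the mean of both and from 2 to 4 between the red-blooded species. Without C. hamatus replicates 2 and 3, 4 rows were called against the mean (1 higher, 3 lower), by row and by summed protein alike, while 21.5% of all rows and 21.1% of proteins were called. With 1 icefish library left there are fewer residual degrees of freedom. For the other fits in this paragraph the share of all rows called is not given here, so their counts have no background beside them. The labels share replicate numbers across species. Of 9 same-numbered pairs, 2 had deviations that correlated above 0.1 (lowest -0.20, highest 0.25), and differently numbered pairs ran from -0.16 to 0.21. With 3 libraries per species this check cannot tell whether the numbers pair the samples. With the replicate block, 7, 5, 7 and 2 member rows were called in the 4 comparisons in the order above: 41_HUMAN was called against T. bernacchii (-3.64, adjusted p = 0.0395) and CAHZ_DANRE lost its call between the red-blooded species (1.56, adjusted p = 0.0618).

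Counts of the other lists moved by over 1.5 times beyond what the report gives. The membrane list against G. acuticeps had 5 rows called, 8 with DESeq2's test and 9 with no filter, and against T. bernacchii it had 7, or 3 without C. hamatus replicates 2 and 3. The carbon dioxide list had 4 and 5 rows called against G. acuticeps and T. bernacchii, 2 and 3 with the block, and 3 against T. bernacchii with the pair fitted alone. Against the mean it had 5, or 8 with no filter. Between the red-blooded species it had 1, and 2 with the block, with the pair alone, or without C. hamatus replicate 3, T. bernacchii replicate 2 or C. hamatus replicates 2 and 3, and 0 with rows summed. The causes were not tested, and the shares of all rows called in these fits are not given beside the counts. The shallowest library held 2501922 counts, a size of 2954980 after TMM scaling. The floor of 3 counts was about 1.02 CPM there, so differences in the 2 RHCG rows were not detectable.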
